A study of Mus musculus with 92 samples.

Results

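The brush border genes of enterocytes described here are the 9 genes Sis, Mgam, Lct, Treh, Alpi, Anpep, Dpp4, Tmprss15 and Vil1, found by their symbols among the 54532 genes of the count tables. RNA-seq libraries had been made from crypts and villi of the mouse gut, from organoids of the small intestine and from spheroids of the fetal intestine, 92 libraries in 21 groups, to follow the loss of Eif4g2, a translation initiation factor, and the inhibition of p300 and CBP by A-485. Deletion relied on loxP-flanked (flox) Eif4g2 alleles and CreER, a recombinase that acts once tamoxifen or 4-hydroxytamoxifen (4-OHT) is given. Rosa26-CreER, a driver active in all cell types, was used in mice sampled on day 9 of the tamoxifen experiment, and there were crypts of 4 flox/flox (homozygous) and 5 flox/+ (heterozygous) mice and villi of 5 and 5. Vil1-CreER, a driver of the gut epithelium controlled by the villin gene, itself a member here, was used in mice given 4 daily doses of 100 mg/kg and sampled at the time labelled 3 months, and there were crypts of 3 homozygous and 4 heterozygous mice and villi of 6 and 4. Every mouse carried CreER, at least 1 flox allele and tamoxifen, so the heterozygous controls lack 1 copy of Eif4g2. All cultures carried Rosa26-CreER and grew in ENR medium (EGF, Noggin and R-spondin). In the first organoid set, 3 flox/flox lines received DMSO or 0.5 µM 4-OHT for 24 h and were collected on day 6. The second set, collected on day 6, held 4 libraries each of flox/flox, flox/+ and Eif4g2 +/+ (CreER-only) organoids, each given 4-OHT. Fetal spheroids of 6 flox/flox and 5 flox/+ lines were taken on day 6 with DMSO and with 4-OHT. For A-485, 4 organoid lines (1 Eif4g2 +/+ and 3 flox/flox, none with 4-OHT) were kept for 4 days in DMSO or in 3, 5 or 10 µM of the inhibitor.

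The brush border is the carpet of microvilli on the luminal face of the absorptive cell, and its membrane holds the enzymes that finish digestion. Sucrase-isomaltase (Sis), maltase-glucoamylase (Mgam), lactase (Lct) and trehalase (Treh) split sugars, aminopeptidase N (Anpep) and dipeptidyl peptidase 4 (Dpp4) trim peptides, and intestinal alkaline phosphatase (Alpi) removes phosphate groups. Enteropeptidase (Tmprss15) activates trypsinogen and is made mostly in the duodenum, while villin (Vil1) bundles the actin core of the microvillus. Crypt cells hold little of the enzymes and cells gain them as they move onto the villus. Lactase is high in the suckling gut, and sucrase-isomaltase and trehalase rise at weaning. CDX2, HNF4 and GATA factors are known activators of these genes.

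The 4 sugar-splitting members are shown by sequence because they share a substrate class and a compartment but did not move together. The 170 bases before each transcription start, from RefSeq on GRCm38.p6 and read on the gene's strand, were Sis at chr3:72967864-72968033 (minus), Mgam at chr6:40628661-40628830 (plus), Lct at chr1:128328319-128328488 (minus) and Treh at chr9:44673063-44673232 (plus). Capitals mark letters, searched on both strands, of TTTAT, the word taken for CDX2. They also mark AGATAA, the word for the GATA family, and CAAAGT for HNF4.
Sis: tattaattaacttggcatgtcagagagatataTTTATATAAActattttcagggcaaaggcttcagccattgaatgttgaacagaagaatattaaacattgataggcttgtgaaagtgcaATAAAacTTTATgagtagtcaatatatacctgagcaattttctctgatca
Mgam: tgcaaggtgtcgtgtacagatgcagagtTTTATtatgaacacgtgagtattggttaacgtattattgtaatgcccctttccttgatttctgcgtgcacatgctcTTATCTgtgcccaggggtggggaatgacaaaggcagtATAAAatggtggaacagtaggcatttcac
Lct: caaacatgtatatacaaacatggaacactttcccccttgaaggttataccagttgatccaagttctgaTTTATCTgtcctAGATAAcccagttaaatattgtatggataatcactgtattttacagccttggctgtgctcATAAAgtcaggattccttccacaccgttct
Treh: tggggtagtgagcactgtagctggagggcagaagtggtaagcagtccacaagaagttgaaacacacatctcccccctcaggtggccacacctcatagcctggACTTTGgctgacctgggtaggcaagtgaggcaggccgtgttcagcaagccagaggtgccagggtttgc
In the 250 bases before the start, TTTAT was present in 6 of the 9 members (Alpi, Sis, Lct, Mgam, Dpp4 and Tmprss15) and in 37.3% of 32841 mouse promoters. Sis held 4 copies in 2 pairs, and the nearer pair lies 50 to 39 bases before the start. AGATAA was in Lct, Mgam and Dpp4 and in 9.99% of all promoters. In Lct 1 of its 2 copies overlaps a TTTAT on the other strand. CAAAGT was in Alpi and Treh (12.6% of all). TATAAA, not capitalised as a word of its own, was in Alpi, Sis, Mgam and Dpp4 (12.4%). It contains ATAAA, which is TTTAT on the other strand, so every TATAAA is also counted as a TTTAT. The only TTTAT of Alpi, the only one of Dpp4, the nearer one of Mgam and both of the farther pair of Sis lie inside a TATAAA. Anpep and Vil1 held none of the 4 words in this window, and for Anpep the RefSeq start lies inside the gene as annotated in the tables.

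Library totals ran from 8652040 to 37611126 counts. Levels are CPM, counts relative to the library total after TMM scaling within a count table, so levels of tissue, organoid and spheroid tables are set side by side and not tested across tables, apart from spheroids and second-set organoids, which share 1. Eif4g2 stood at 319 to 384 CPM in heterozygous and 48.3 to 61.7 in homozygous Rosa26-CreER villi, 437 to 488 and 231 to 239.7 in Vil1-CreER crypts, and 684 to 773 with DMSO and 139 to 144 with 4-OHT in the first organoids, in the direction of every label. General enterocyte genes (10 genes such as Apoa4 and Fabp1) summed to 2404 to 3759.6 CPM in heterozygous Rosa26-CreER crypts and 57296 to 70274 in villi. The stem and cycling markers (7 genes) were at 4261 to 7031 and 65.3 to 134, as the tissue labels say. The 6 immune markers summed to 66 to 1579 CPM in homozygous and 91.6 to 332 in heterozygous Rosa26-CreER crypts, and at most 1.05 CPM in any culture. Mitochondrial genes took 13.7 to 25.2% of counts in homozygous and 6.24 to 12.4% in heterozygous Rosa26-CreER crypts, and 30.4 to 40.3% and 17.5 to 30.8% in Vil1-CreER crypts. The samples are separate animals or culture lines, or carry only a replicate number. The p-values measure the spread between them, which may in part be technical. Each spheroid line shares the number in its name with at least another line, of the same or the other genotype. Some of these numbers occur in flox/flox lines only or in flox/+ lines only. Lines sharing a number were fitted as independent, and a common origin was not tested. A first-set organoid line is also among the lines of the inhibitor series. In bulk RNA, fewer enterocytes and less of an mRNA per enterocyte cannot be told apart.

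**Figure D1:**
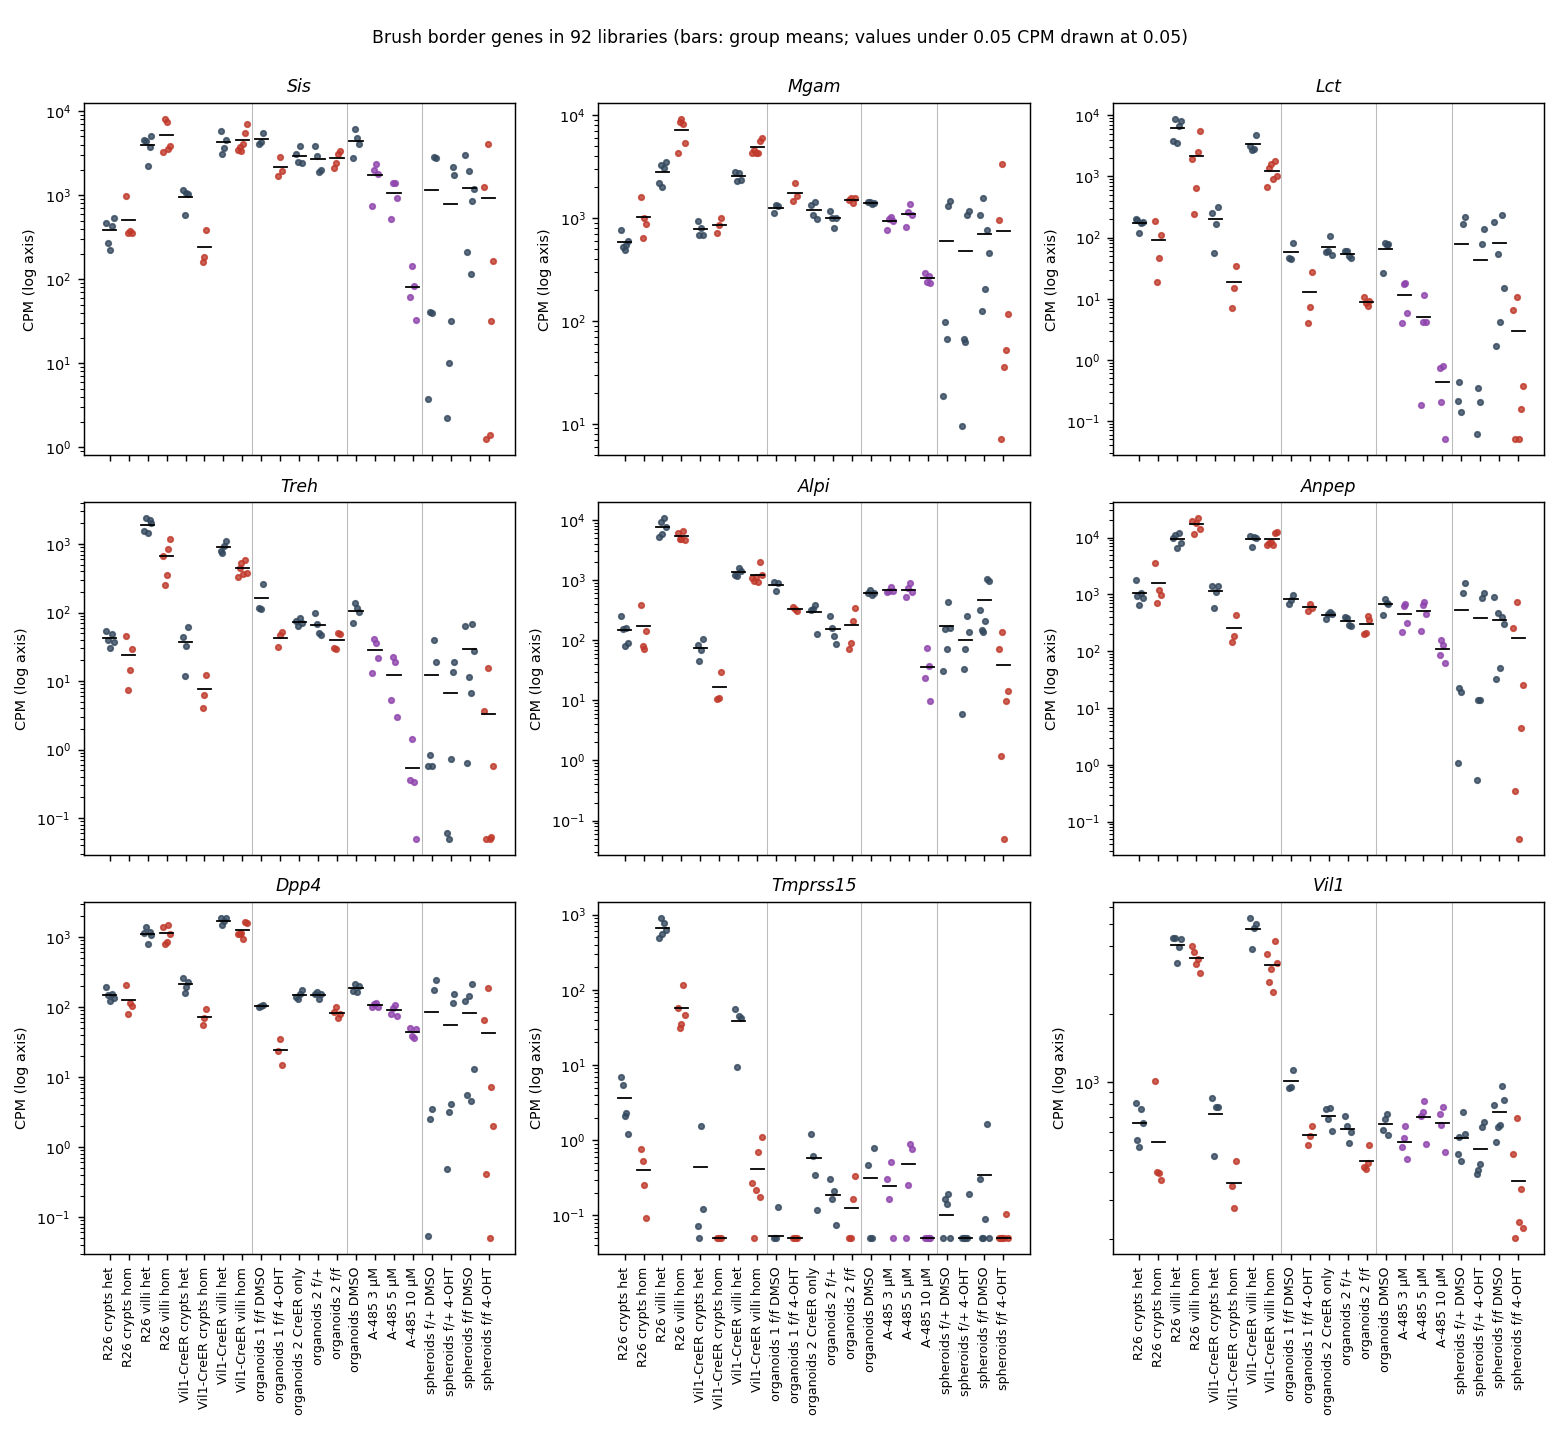
Levels of the 9 genes in CPM on a log axis, 1 point per library and a bar at each group mean, for the 21 groups. Red marks groups labelled as having lost both Eif4g2 copies, purple A-485 and dark blue the others. Villus groups are highest for most members, and Tmprss15 is above 2 CPM in tissue only.

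Villi were the richest source of these mRNAs. Summed per length over the 9 genes, heterozygous villi held 9844 ± 2102 CPM per kb (SD, n = 5) with the Rosa26 driver and 6308 ± 935 (n = 4) with the Vil1 driver, against 698 ± 200.4 (n = 5) and 809 ± 225 (n = 4) in crypts. First-set organoids in DMSO held 1708 ± 244 (n = 3), CreER-only organoids 1035 ± 177 (n = 4) and flox/+ spheroids in DMSO 617 ± 583 (n = 5). In heterozygous Rosa26-CreER villi the level per length was highest for Alpi, 3290.4 ± 951 CPM per kb, then Anpep, 2308 ± 521, and Vil1, 1147 ± 118. Lct (559 to 1351) and Treh (709.7 to 1154) overlapped, and Sis, Mgam, Dpp4 and Tmprss15 followed, the last at 160.1 ± 40.4 and overlapping Dpp4 at 127 to 219.6. In Vil1-CreER heterozygous villi the order began with Anpep, 2279 ± 439 CPM per kb, and Vil1, 1344 ± 176, and Alpi was at 575 ± 76.6. In organoids Sis led, with 36.3% ± 1.77 (SD) of the summed level in first-set DMSO organoids, where Alpi (21% ± 3.71), Vil1 (16.6% ± 0.606) and Anpep (11.5% ± 0.997) followed, and 38.2% ± 2.62 in CreER-only organoids. Lct, 9.57% ± 2.38 in heterozygous Rosa26-CreER villi, was 0.516% ± 0.0981 in the DMSO organoids.

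Enteropeptidase was high in heterozygous villi, and differed there between the mice of the 2 drivers. Tmprss15 was at 484.6, 908, 559, 766 and 629 CPM in the 5 heterozygous Rosa26-CreER villus libraries and at 55.8, 9.4, 45.5 and 42.5 in the 4 of the Vil1 driver, without overlap. The 3 distal gut markers (Fabp6, Slc10a2 and Osr2) summed to 13.4 to 33.9 CPM in the first and 41.7 to 1069.7 in the second. Proximal gut markers are given as mean log2 CPM over the villi of both genotypes. Slc40a1 was at 8.61 with Rosa26 and 1.54 with Vil1, Cybrd1 at 6.60 and 0.13, Gata4 at 8.17 and 6.92 and Fabp1 at 10.44 and 10.88. The part of gut region in the Tmprss15 difference was not tested. The cultures never passed 1.65 CPM of Tmprss15, reached in 1 flox/flox spheroid line with DMSO, and 0 reads were counted in all 4 libraries at 10 µM A-485. Homozygous Rosa26-CreER crypts (0.0921 to 0.756), Vil1-CreER crypts (up to 1.55) and homozygous Vil1-CreER villi (0 to 1.12) lay within that range. It was filtered out of every culture test as too low.

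All members rose from crypt to villus. In heterozygous mice the edgeR quasi-likelihood test called 9 of 9 higher in villi with both drivers, against 36.4% of all tested genes with Rosa26 and 32.7% with Vil1. In heterozygous Rosa26-CreER mice Alpi went from 252, 157, 80.6, 159.8 and 90.4 CPM in 5 crypt libraries to 5296, 9178, 5831, 10575 and 7569 in 5 villus libraries, a log2 fold change of 5.71 ± 0.37 (SE; edgeR adjusted p 4.1e-08). No crypt library reached the lowest villus library for Alpi or any other member. Overlap of groups, here and below, was looked at in the members only, so no share of all genes stands beside it. Treh rose by 5.52 ± 0.22, Lct by 5.17 ± 0.31 and Tmprss15 by 7.55 ± 0.51, while the smallest steps were Mgam, 2.27 ± 0.19, and Vil1, 2.64 ± 0.15. With the Vil1 driver the ends were Tmprss15, 6.55 ± 1.20, and Mgam, 1.66 ± 0.17, and Sis rose by 2.11 ± 0.27. Mgam had thus the flattest gradient of the 9 with both drivers, although the order itself was not tested. In the Rosa26 set the distal gut markers went the other way, 124 to 460.2 CPM in heterozygous crypts and 13.4 to 33.9 in villi, with Fabp6, the ileal bile acid binding protein, at -13.52 ± 1.03. The proximal gut markers all rose from heterozygous Rosa26-CreER crypts to villi, Slc40a1 by 5.36 ± 0.55, Fabp1 by 4.29 ± 0.26, Cybrd1 by 4.11 ± 0.47 and Gata4 by 1.28 ± 0.12. The part of gut region in that set's gradient was not tested.

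The gradient was also present in the mice labelled homozygous. In their Vil1-CreER crypts Eif4g2 was still at 231 to 239.7 CPM, against 437 to 488 in heterozygous crypts. In homozygous mice 9 of 9 members rose in villi with the Rosa26 driver (32.4% of all genes), and 8 of 8 tested with the Vil1 driver (33.1%), from 2.44 ± 0.21 for Mgam to 6.10 ± 0.48 for Alpi. Tmprss15 was not tested there, being at 0 in the 3 homozygous crypt libraries and at 0 to 1.12 CPM in the 6 villus libraries.

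**Figure D2:**
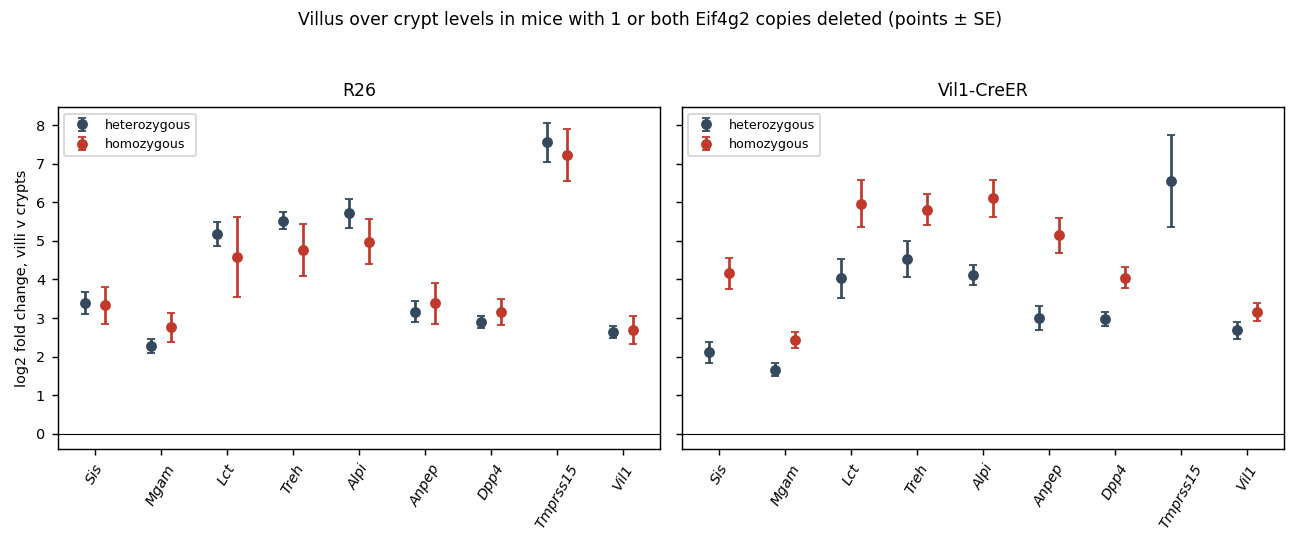
Log2 fold change of villi over crypts with its SE for each gene, heterozygous mice in dark blue and homozygous mice in red, for the Rosa26 (left) and Vil1 (right) drivers. With the Vil1 driver the homozygous points lie above the heterozygous ones for the 8 genes drawn in both, and with Rosa26 they lie close together. The plot shows estimates and no test between the genotypes.

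On day 9, with deletion by Rosa26-CreER, maltase-glucoamylase was higher and enteropeptidase lower, and no other member passed the test in crypts. In crypts 1 of 9 members rose and 1 fell, where 8.63% of all genes rose and 11.6% fell, close to the members' shares. Mgam was at 1609, 641, 1001 and 877 CPM in homozygous replicates 1, 3, 4 and 5 and 763, 518, 489.7, 543 and 598 in heterozygous replicates 1 to 5. Homozygous replicate 3 lay inside the heterozygous range, and the change was 0.89 ± 0.25 (edgeR adjusted p 0.037). Tmprss15 was at 0.756, 0.522, 0.25 and 0.0921 CPM against 6.93, 5.44, 2.11, 2.32 and 1.22, without overlap, a change of -3.10 ± 0.73 (0.0184). Lct changed by -0.88 ± 0.54 and Treh by -0.76 ± 0.44, neither called (edgeR adjusted p 0.269 and 0.247), and Alpi, Sis, Anpep, Dpp4 and Vil1 lay between -0.22 and 0.66.

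Homozygous crypt replicate 1 stood apart, with 3581 CPM of Anpep against 693, 1198 and 976 in the other homozygous crypts. Its general enterocyte genes summed to 8290.1 CPM against 2814, 3052 and 3065, and the part of villus cells in this library was not tested. Without it Vil1 was called at -0.72 and Mgam was not, at 0.59 (edgeR adjusted p 0.0178 and 0.0587). The Mgam call in crypts was also lost without homozygous replicate 4 or heterozygous replicate 2, 3, 4 or 5, at log2 fold changes from 0.59 to 0.89 over all 6 cases. A term for reads of the Y-linked gene Ddx3y, which stands for the animal's sex, ended the call of Tmprss15 (-2.16, edgeR adjusted p 0.258) and brought calls of Sis (1.42, 0.0332) and Anpep (1.83, 0.0256). In the crypts of this driver 6 of 7 stem and cycling markers fell, 4 of 4 Paneth, 3 of 6 goblet, 3 of 4 enteroendocrine and 3 of 3 tuft markers tested. Of all genes 11.6% fell there, and the part of cell makeup was not tested.

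In Rosa26-CreER villi 2 members rose and 2 fell of 9, where 15% of all genes rose and 18.2% fell, not far from the members' shares. Mgam was at 4283, 8499, 9157, 8259 and 5364 CPM in the 5 homozygous and 2175, 3267, 2001, 3085 and 3502 in the 5 heterozygous libraries. Each homozygous library was above each heterozygous one, 1.29 ± 0.23 (edgeR adjusted p 0.00206). Anpep was at 19607, 11761, 18048, 21701 and 14063 CPM against 9837, 11272, 6636, 11814 and 8166, a rise of 0.79 ± 0.21 (0.0126) with replicate 2 overlapping the controls. Treh was at 677, 256, 350.1, 850.1 and 1165 against 1525, 2363, 1454, 2262 and 2029, without overlap, a change of -1.59 ± 0.37 (0.00892). Trehalase was thus lower and maltase-glucoamylase higher in the same homozygous libraries. Of the distal gut markers Slc10a2 fell in these villi (-2.57 ± 0.57, edgeR adjusted p 0.00593) at a low mean log2 CPM of -0.685. Osr2 was not called and Fabp6 was not tested. Of the proximal gut markers Slc40a1 fell (-1.52 ± 0.39, edgeR adjusted p 0.0132), and Gata4, Cybrd1 and Fabp1 were not called. Gut region was not tested as a part of the member changes. Alpi was called without the low-count filter (edgeR adjusted p 0.0488).

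Enteropeptidase was the member with the largest villus change on day 9, at 57.4, 30.7, 35.3, 116 and 46.8 CPM in homozygous and 484.6, 908, 559, 766 and 629 in heterozygous villi, -3.59 ± 0.37 (edgeR adjusted p 0.00011). Lct spread widely in the homozygous mice, 1958, 239, 653, 2540.5 and 5514 CPM against 3790.0, 8651, 3583, 6706 and 8158, and was not called at -1.54 ± 0.70 (0.12). Only homozygous replicate 5 reached the heterozygous range, and without that library Lct was called at -2.22 (edgeR adjusted p 0.0252). Alpi, -0.55 ± 0.20 (0.0501), sat at the threshold and was called by DESeq2 (-0.54, adjusted p 0.0306). Sis, Dpp4 and Vil1 were at 0.35, -0.03 and -0.25 and not called. With the Ddx3y term the call of Anpep was lost (0.67, adjusted p 0.0973). As a share of the summed level per length, Mgam went from 3.28% ± 0.414 (SD, n = 5) to 8.45% ± 2.81 (n = 5) and Lct from 9.57% ± 2.38 to 3.5% ± 3.63. A difference of the genotype effect between villi and crypts was called for 0 of 9 members in this set by the edgeR interaction test (11.5% of all genes), 0 had an unadjusted p under 0.05, and DESeq2 called 0.

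At 3 months, with deletion by Vil1-CreER, most of these transcripts were lower in crypts, and maltase-glucoamylase was not. Of 8 members tested in crypts 7 fell and 0 rose, where 17.7% of all genes fell. Sis was at 159, 186 and 380.4 CPM in 3 homozygous and 1166, 577, 1059 and 1038 in 4 heterozygous libraries, -1.99 ± 0.39 (edgeR adjusted p 0.0103). Lct was at 7.16, 15 and 34.3 against 256, 55.7, 167 and 318, -3.40 ± 0.83 (0.027). For both the groups did not overlap, and heterozygous replicate 2 was the lowest control.

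The peptidases and the phosphatase were lower in the same 3 libraries. Anpep was at 145, 183 and 427 CPM against 1422, 584, 1095 and 1429.9, -2.17 ± 0.51 (edgeR adjusted p 0.0206). Dpp4 was at 55.1, 69.5 and 93.5 against 261, 156, 193 and 229, -1.53 ± 0.23 (0.00319). Alpi, at 10.4, 11.1 and 29.3 CPM against 83.5, 44.9, 68.3 and 105, changed by -2.15 ± 0.50 (0.021), Treh by -2.32 ± 0.66 (0.045) and Vil1 by -1.01 ± 0.24 (0.0163). Treh was the one of these 7 whose groups overlapped. Mgam was at 722, 853 and 1005 CPM against 943, 688, 802 and 688, 0.14 ± 0.15, with overlapping groups and no call (0.522). Its share of the summed level per length was 32.1% ± 5.12 (SD, n = 3) against 11.7% ± 3.26 (n = 4). Tmprss15 had 0 reads in the 3 homozygous crypts and 0.0712, 0, 1.55 and 0.12 CPM in the heterozygous ones, at least 14.1-fold lower against a floor of 3 reads over the group, a bound that rests on heterozygous replicate 3.

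These crypt calls rest on 3 homozygous libraries. Leaving out homozygous replicate 1 or 2 left 2 calls, Sis and Dpp4, with Alpi, Lct, Treh, Anpep and Vil1 keeping their direction at edgeR adjusted p from 0.0593 to 0.144. The Treh call was lost on leaving out any of the 7 libraries but heterozygous replicate 2 (0.0567 to 0.144), and those of Lct and Anpep also without heterozygous replicate 1 (0.0566 and 0.0508). General enterocyte genes summed to 959.6 to 2032 CPM in homozygous and 1370.4 to 3301 in heterozygous crypts and the stem and cycling markers to 739.7 to 1087 and 5679 to 6305. Markers of other cell types were lower in the same libraries, in a comparison where 17.7% of all genes fell. Of the Paneth markers 4 of 4 fell (summed 337 to 809 against 2352 to 5455 CPM), of the goblet markers 4 of 6 (1239 to 1699.5 against 3455 to 5295), of the enteroendocrine markers 4 of 4 (118 to 121 against 402 to 508) and of the tuft markers 3 of 3 tested (3.79 to 6.45 against 80.6 to 93.9, Il25 at 0). The part of cell makeup in the member changes was not tested. Of the proximal gut markers Cybrd1 and Slc40a1 fell in these crypts (-1.42 ± 0.43 and -1.41 ± 0.32, edgeR adjusted p 0.0381 and 0.0124). Both were at a low mean log2 CPM, 0.87 and 2.25, and Gata4 and Fabp1 were not called. Of the distal gut markers Osr2 fell (-0.72 ± 0.22, 0.0434), and Fabp6 and Slc10a2 were not called. Gut region was not tested either. Without the low-count filter the calls of Alpi, Lct, Treh and Anpep were lost (edgeR adjusted p 0.0582, 0.0667, 0.108 and 0.0631), and that of Treh also with library totals (0.0586).

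In the villi of the same driver lactase, trehalase and enteropeptidase were lower and maltase-glucoamylase higher. Of 9 members 1 rose and 5 fell, where 20.9% of all genes rose and 21.6% fell. Mgam was at lowest 4292, median 4447 and highest 6016 CPM in 6 homozygous and 2780.0, 2304, 2758 and 2361 in 4 heterozygous libraries, without overlap, 0.91 ± 0.16 (edgeR adjusted p 0.000521). Lct was at lowest 661, median 1193 and highest 1781 against 3122, 2709, 2851 and 4700.5, -1.47 ± 0.27 (0.000811), and Treh at lowest 335, median 412 and highest 587 against 802, 732, 949.9 and 1125, -1.05 ± 0.19 (0.00061), both without overlap. Lactase and trehalase were thus below the controls, and maltase-glucoamylase above them, in each of the 6 homozygous libraries. Among the distal gut markers the ileal bile acid transporter Slc10a2 rose in these villi (3.66 ± 1.10, edgeR adjusted p 0.0243), while Fabp6 and Osr2 were not called, and the 3 summed to 491 to 1093 CPM in homozygous and 41.7 to 1069.7 in heterozygous libraries. Of the proximal gut markers Fabp1 fell in these villi (-0.58 ± 0.20, edgeR adjusted p 0.031). Cybrd1 rose (1.97 ± 0.67, 0.0311) at a low mean log2 CPM of 0.128, and Gata4 and Slc40a1 were not called. The part of gut region in the member changes was not tested.

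Tmprss15 was at lowest 0, median 0.244 and highest 1.12 CPM in homozygous and 55.8, 9.4, 45.5 and 42.5 in heterozygous villi, -6.45 ± 0.69 (edgeR adjusted p 5.42e-05), the fall of a gene with 69 reads over the 6 homozygous libraries. Vil1 was at lowest 2508, median 3271 and highest 4210.2 against 5353, 3894, 4847 and 5000.1, -0.56 ± 0.17 (0.0159), and Dpp4 changed by -0.47 ± 0.17 (0.0396), both with overlap. The Dpp4 call was lost on leaving out any of 7 libraries (heterozygous replicates 1, 3 and 4 and homozygous replicates 1 to 4, edgeR adjusted p 0.0638 to 0.102), and that of Vil1 without heterozygous replicate 1 (0.0513). With library totals the Dpp4 call was lost too (edgeR adjusted p 0.106). Alpi, Sis and Anpep were at -0.17, 0.06 and -0.04 and not called, and Alpi was called without homozygous replicate 5 (-0.39, 0.0317). General enterocyte genes summed to 31698 to 57547 CPM in homozygous and 38340.1 to 48278 in heterozygous villi.

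With the Vil1 driver the genotype effect differed between villi and crypts. The edgeR interaction test called 5 of 9 members, each with the more positive effect in villi, where 9.38% of all genes were called in that direction. The effect in villi minus that in crypts was 2.15 ± 0.49 for Anpep (adjusted p 0.00942), 2.06 ± 0.45 for Sis (0.00796), 2.00 ± 0.47 for Alpi (0.011), 1.08 ± 0.30 for Dpp4 (0.0239) and 0.79 ± 0.25 for Mgam (0.0382). Anpep, Sis and Alpi fell in crypts and were near 0 in villi. Of the proximal gut markers Cybrd1 (3.42 ± 0.92, edgeR adjusted p 0.0202) and Slc40a1 (1.75 ± 0.56, 0.0443) were called in the same direction. Both were at a low mean log2 CPM, 0.44 and 1.84. Gata4, Fabp1 and the distal gut markers were not called, and the part of gut region in the interaction was not tested. With the animal as a block, since crypts and villi came from the same mice, Dpp4 (0.0558) and Mgam (0.0841) were no longer called. The Mgam and Dpp4 calls were also lost without crypt heterozygous replicate 1 or crypt homozygous replicate 1 or 2, and that of Mgam without crypt heterozygous replicate 3 or villus heterozygous replicate 2 or 4 (edgeR adjusted p 0.0554 to 0.105 and, for Dpp4, 0.0557 to 0.0758). With library totals Lct (0.0415) and Vil1 (edgeR adjusted p 0.0472) were called as well. DESeq2 also called Lct (1.96, adjusted p 0.0189). In edgeR Lct was called at 2.26 without crypt heterozygous replicate 2, at 2.71 without crypt homozygous replicate 3 and at 2.10 without villus homozygous replicate 1, and Treh at 1.58 without the first of these.

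**Figure D3:**
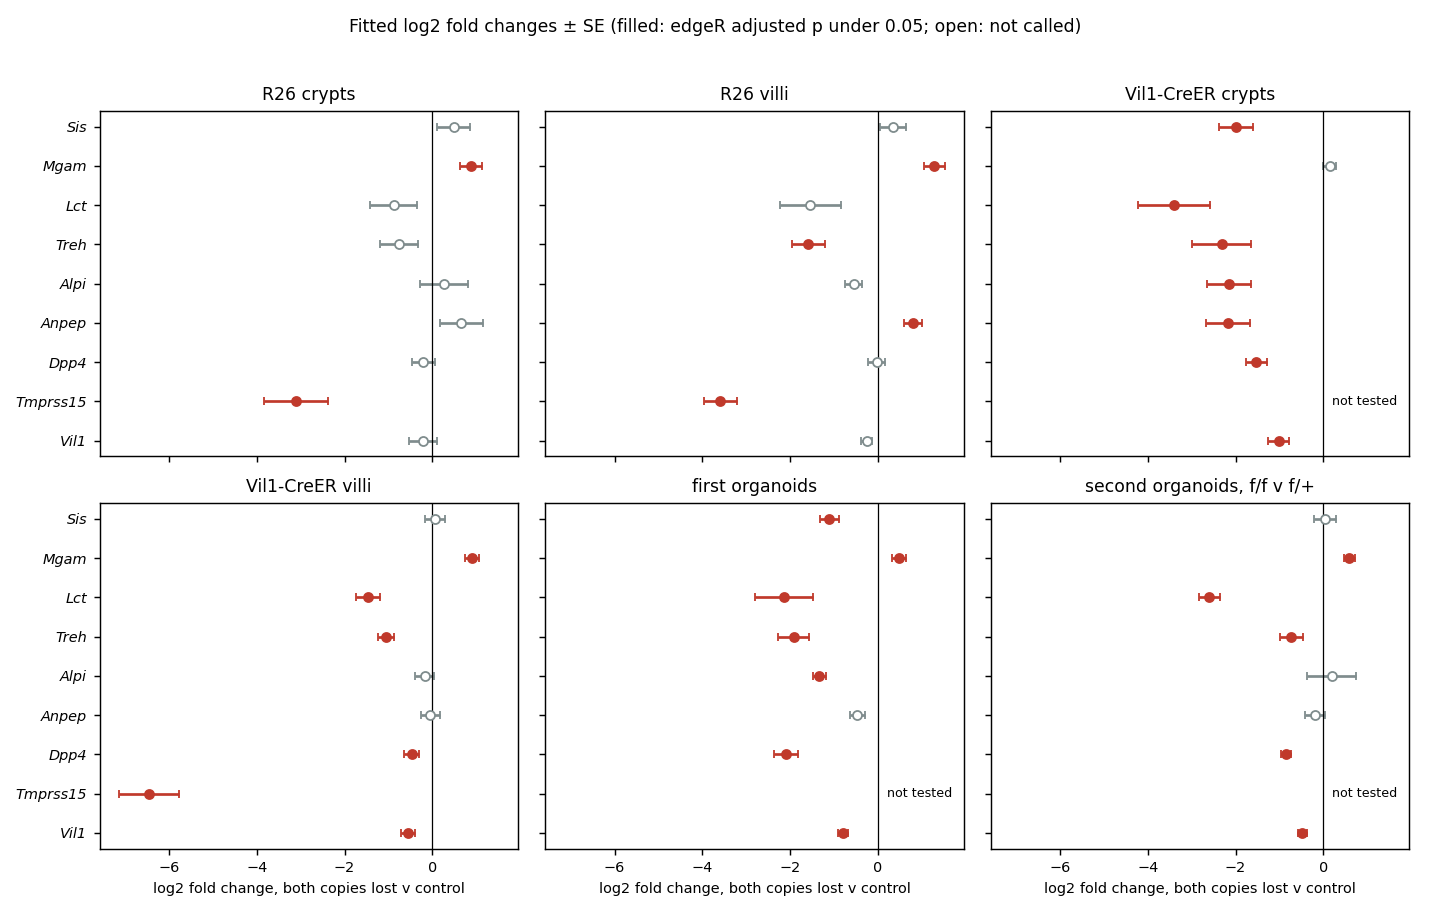
Fitted log2 fold changes with their SE in 6 comparisons of groups labelled as having lost both Eif4g2 copies with their controls. Points are filled red where edgeR's adjusted p was under 0.05 and open where it was not. Mgam lies to the right of 0 in every panel and is open only in Vil1-CreER crypts, while Lct and Treh lie to the left in every panel. Tmprss15 was too low to test in Vil1-CreER crypts and in organoids.

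In cultured organoids lactase, trehalase, dipeptidyl peptidase 4 and villin fell after deletion in both sets. In the first set only flox/flox lines received 4-OHT, so deletion and 4-OHT itself cannot be told apart there. In the first set 6 of 8 tested members fell with 4-OHT and 1 rose, where 17.2% of all genes fell and 18.2% rose. Lct was at 3.99, 7.29 and 27.8 CPM in lines 1 to 3 with 4-OHT and 47, 45.3 and 80.2 with DMSO, -2.14 ± 0.67 (edgeR adjusted p 0.0427). Dpp4 was at 23.2, 34.4 and 14.7 against 98.8, 103 and 105, -2.09 ± 0.27 (0.00171). Both were lower in 3 of 3 lines and without overlap.

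Treh changed by -1.92 ± 0.36 (edgeR adjusted p 0.00651), Alpi by -1.33 ± 0.14 (0.000911), Sis by -1.11 ± 0.22 (0.00764) and Vil1 by -0.80 ± 0.12 (0.0024). Sis was at 1703, 2868 and 1919 CPM with 4-OHT and 4044, 4334 and 5549 with DMSO. Mgam was higher in all 3 lines, 1473, 2175 and 1657 against 1129, 1331 and 1318, 0.49 ± 0.16 (0.0467). Anpep, -0.47 ± 0.16, was not called (0.0626) but was with the line as a block (-0.46 ± 0.11, 0.0177) and without 4-OHT line 2 (-0.62, 0.0368). The Mgam call was lost without 4-OHT line 2 or any of the 3 DMSO libraries (edgeR adjusted p 0.0894 to 0.156), and the Lct call without any 1 of 5 libraries, all but 4-OHT line 3 (0.0746 to 0.112). With the A-485 libraries in the fit the calls of Sis (-1.10, edgeR adjusted p 0.109) and Lct (0.0743) were lost. Without the low-count filter those of Treh (0.0569) and Lct (0.21) were lost, and with DESeq2 size factors that of Mgam (0.0586). Anpep was called by DESeq2 (adjusted p 0.0268) and without the filter (edgeR adjusted p 0.0427). General enterocyte genes summed to 6213 to 9163 CPM with 4-OHT and 13841 to 19592 with DMSO.

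In the second set lactase, trehalase, dipeptidyl peptidase 4 and villin fell against both controls. Its flox/flox libraries serve both comparisons below, so these share samples. Against flox/+ 4 of 8 members fell and 1 rose (24.3% of all genes fell and 22.6% rose), and against CreER-only 4 fell and 0 rose (23.5% of all genes fell). Lct was at 10.5, 8.64, 7.49 and 9.2 CPM in flox/flox, 59.7, 60.6, 49.5 and 46 in flox/+ and 57.7, 60.5, 106 and 51.8 in CreER-only organoids. The flox/flox values lay below all 8 others, -2.60 ± 0.24 and -2.95 ± 0.24 (edgeR adjusted p 7.24e-06 and 2.89e-06).

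Dpp4 was at 83.4, 99.5, 69.3 and 79.1 CPM in flox/flox, against 151, 162, 129 and 152 in flox/+ and 139, 128, 154 and 175 in CreER-only organoids, -0.85 ± 0.12 and -0.85 ± 0.12 (edgeR adjusted p 8.24e-05 and 8.82e-05). Vil1 was at 420.2, 409, 435 and 526 in flox/flox, against 709, 639, 535 and 597 in flox/+ and 756, 687, 769 and 608 in CreER-only, -0.48 ± 0.10 and -0.66 ± 0.10 (0.00117 and 9.69e-05), again without overlap. Treh changed by -0.73 ± 0.26 and -0.88 ± 0.26 (edgeR adjusted p 0.0417 and 0.0192). The first call was lost without any of 8 of the 12 libraries (all but flox/flox 3 and 4 and flox/+ 3 and 4, 0.0504 to 0.105) and the second without flox/flox 1 or 2 (0.0529 to 0.0538). Mgam was at 1482, 1568, 1393 and 1557 CPM in flox/flox, 1163, 1012, 793 and 1003 in flox/+ and 1336, 1077, 1418 and 986 in CreER-only organoids. It was above flox/+ (0.59 ± 0.12, 0.0017) and, at 0.31 ± 0.12 (0.0522), not called against CreER-only. That second value was called by DESeq2 (0.32, 0.0335) and without any of 4 libraries (flox/+ 1 or 3, CreER-only 1 or 3).

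Sis, Alpi and Anpep, which fell or were lower in the first set, did not pass here. Sis was at 2107, 2439, 3076 and 3389 CPM in flox/flox, 3888, 2919, 1869 and 2013 in flox/+ and 3069, 2486, 3864 and 2444 in CreER-only organoids, 0.03 ± 0.26 and -0.11 ± 0.26. Alpi spread from 71.8 to 339 CPM within flox/flox alone, and changed by 0.20 ± 0.56 and -0.70 ± 0.56. Anpep changed by -0.19 ± 0.23 and -0.58 ± 0.24, the latter called without flox/flox 3 (-0.79, 0.0159). Whether the first and second sets differ was not tested. In flox/+ against CreER-only organoids edgeR called 0 of 8 members, where 0.113% of all genes were called. Mgam alone had an unadjusted p under 0.05, DESeq2 called 0, and estimates ran from -0.90 (Alpi, SE 0.56) to 0.00 (Dpp4).

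With the p300 and CBP inhibitor the enzymes fell and villin did not pass the test. The 3 doses share the DMSO libraries, and with 8 members tested 5 fell at 3 µM, 5 at 5 µM and 7 at 10 µM and 0 rose, where 8.42%, 25.1% and 32.6% of all genes fell and 24.4% and 29.4% rose at the 2 higher doses. Sis was at 2783, 6071, 4795 and 4059.5 CPM in DMSO in lines 1 to 4, 742, 2014, 2326 and 1786 at 3 µM, 527, 1411, 1396 and 918 at 5 µM and 61.4, 144, 84 and 32.5 at 10 µM. It was lower at each higher dose in all 4 lines, with fold changes against DMSO of -1.37 ± 0.44, -2.06 ± 0.45 and -5.78 ± 0.53 (edgeR adjusted p 0.0413, 0.00141 and 1.89e-07).

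Lct was at 26.1, 80.7, 75.2 and 78.2 CPM in DMSO, 4, 17.4, 18.3 and 5.77 at 3 µM, 0.183, 4.2, 11.6 and 4.17 at 5 µM and 0.727, 0.204, 0.801 and 0 at 10 µM. Its changes against DMSO were -2.52 ± 0.73, -3.70 ± 0.78 and -7.09 ± 0.99 (edgeR adjusted p 0.0252, 0.00106 and 1.56e-05). Treh went from 70.4, 139, 117 and 101 CPM to 0.364, 1.43, 0.334 and 0 at 10 µM, -7.50 ± 0.79 (7.23e-07). Line 1, the Eif4g2 +/+ line, was the lowest of the 4 in DMSO for Lct, Sis, Treh and Anpep, with general enterocyte genes at 7155 CPM against 12228 to 15601 in lines 2 to 4.

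Alkaline phosphatase followed another course. Alpi was at 618, 679.6, 559 and 599 CPM in DMSO, 634, 653, 775 and 666 at 3 µM, 526, 729, 893 and 634 at 5 µM and 23.6, 74.1, 36.9 and 9.69 at 10 µM. The first 3 groups overlapped and only the highest dose was apart, so that from 5 to 10 µM the change was -4.26 ± 0.43 (edgeR adjusted p 3.89e-06). Anpep overlapped its DMSO values at 5 µM (438, 837, 714 and 680.4 CPM in DMSO, 223, 653, 745 and 444 at 5 µM) and was at 86.8, 156, 127 and 61.9 at 10 µM, -2.63 ± 0.43 (7.48e-05). With the line as a block it was called at 3 µM (-0.65 ± 0.18, 0.0482) and at 5 µM (-0.45 ± 0.14, 0.0175).

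Mgam was lower with the inhibitor. It was at 1435, 1430.2, 1373 and 1402 CPM in DMSO, 767, 979, 1035 and 941 at 3 µM, 809.8, 1144, 1378 and 1067 at 5 µM and 294, 239, 274 and 231 at 10 µM. The changes were -0.60 ± 0.13, -0.36 ± 0.13 and -2.44 ± 0.14 (edgeR adjusted p 0.00395, 0.0319 and 1.21e-10). Dpp4 went down by dose, -0.82 ± 0.14, -1.06 ± 0.14 and -2.11 ± 0.14 (0.000411, 5.06e-06 and 7.45e-10). Vil1 was the 1 member of 8 not called, at 609, 685, 720.4 and 582 CPM in DMSO and 724, 645, 775 and 486 at 10 µM, 0.02 ± 0.15 (0.937). It made up 67.8% ± 5.48 (SD, n = 4) of the summed level per length at 10 µM against 12.8% ± 1.81 in DMSO.

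Between doses, 7 of 8 members fell from 5 to 10 µM (12.4% of all genes) and 0 were called from 3 to 5 µM (24.5% of all genes; Vil1 alone had an unadjusted p under 0.05 and DESeq2 called 0). With the line as a block, the second comparison gave 3 calls, Sis -0.67 ± 0.09 (0.00228), Treh -1.41 ± 0.32 (0.0145) and Vil1 0.36 ± 0.07 (edgeR adjusted p 0.00901), and the Lct call from 5 to 10 µM was lost (0.0777). Leaving out 1 library cost the 3 µM comparison up to 3 of its 5 calls, those of Sis (without any of 8 libraries), Lct (5) and Treh (4), at edgeR adjusted p up to 0.105. Those libraries were 3 µM lines 1, 2 and 4, DMSO lines 2, 3 and 4, 5 µM line 4 and 10 µM line 3, and 3 µM line 1, 3 µM line 4, DMSO line 2 and DMSO line 3 each cost all 3 calls. Without the low-count filter the 3 µM calls of Sis, Lct and Treh were lost (edgeR adjusted p 0.116, 0.0788 and 0.0769), as was that of Lct from 5 to 10 µM (0.0773). With library totals those of Sis at 3 µM (0.0516) and Mgam at 5 µM (0.0738) were lost. The 5 µM Mgam call was lost without any DMSO library or 5 µM line 1 or 4 (0.0501 to 0.12). The Lct call from 5 to 10 µM was lost without 10 µM line 2 or 4 or 5 µM line 3 (0.0577 to 0.108), and from 3 to 5 µM Mgam was called without 5 µM line 1 (0.36, 0.0422) and Vil1 without 5 µM line 4 (0.47, 0.0259). General enterocyte genes summed to 7155 to 15601 CPM in DMSO and 335 to 561 at 10 µM, and stem and cycling markers to 7352 to 8497 and 277 to 335. Of all genes 32.6% fell at 10 µM. Of the Paneth markers 4 of 4 fell at 10 µM (summed 13 to 27.1 CPM against 3405 to 5356 in DMSO), of the goblet markers 6 of 6 (227 to 503 against 3989 to 5869.8), of the enteroendocrine markers 4 of 4 (2.47 to 4.07 against 330.2 to 488) and of the tuft markers 3 of 3 tested (0.2 to 2.11 against 41 to 51.6, Dclk1 and Il25 at 0). The part of cell makeup in the member changes was not tested.

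**Figure D4:**
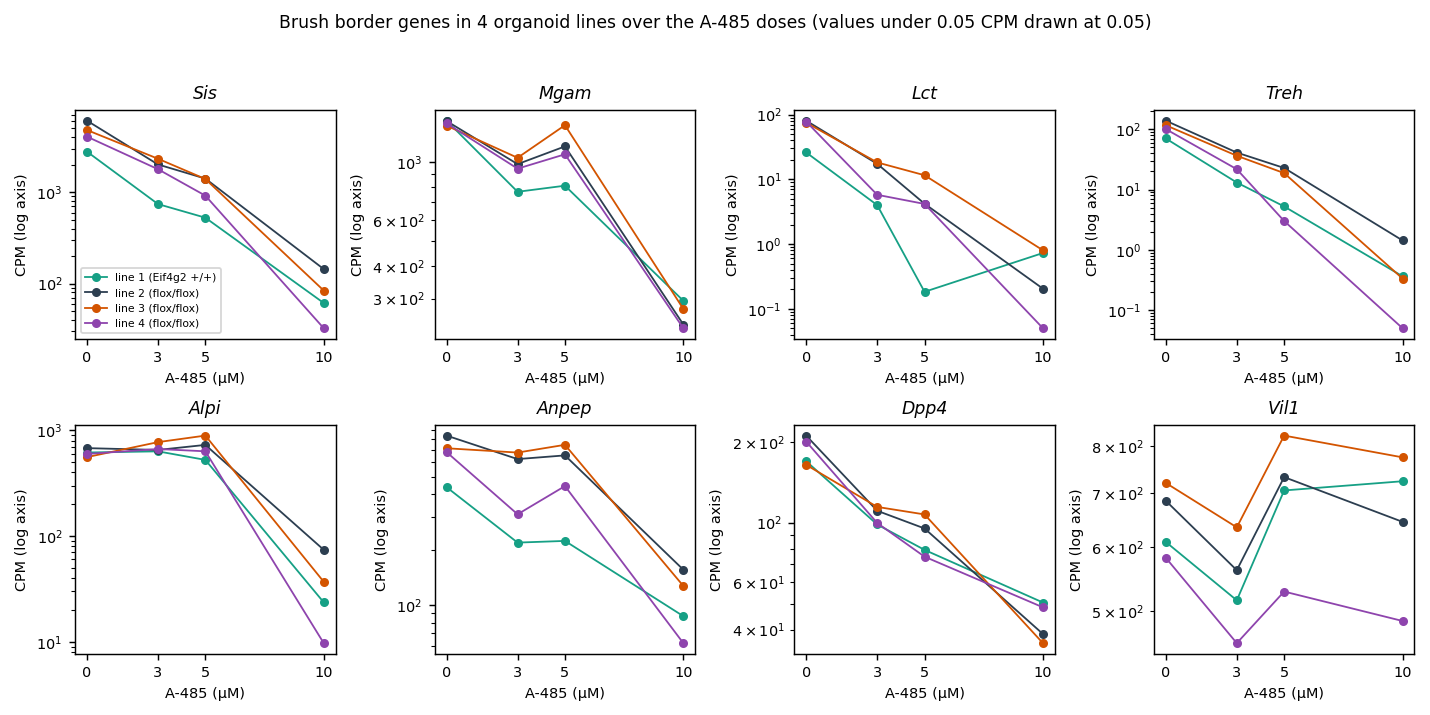
CPM on a log axis against the A-485 dose in µM for 8 genes, 1 line of points per organoid line, the Eif4g2 +/+ line in green. Sis, Lct and Treh go down at each step in most lines, Alpi and Anpep drop between 5 and 10 µM, and Vil1 stays between 457 and 824 CPM.

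Fetal spheroids, cultures of the immature gut that grow as hollow spheres, differed widely from line to line. Sis in flox/+ lines 1 to 5 was at 3.75, 40.9, 39.8, 2876 and 2795 CPM with DMSO and 2.24, 10.2, 31.9, 2154 and 1716 with 4-OHT. Lines 4 and 5 were high and lines 1 to 3 low under both treatments. In flox/flox lines 1 to 6 it was at 3040.2, 214, 1931, 115, 854 and 1183 CPM with DMSO and 1254, 1.24, 4096, 1.4, 31.8 and 165 with 4-OHT, and line 3 was the one that was higher with 4-OHT. The stem and cycling markers also separated the flox/+ lines, at 4324 and 11154 CPM in lines 4 and 5 with DMSO against 455 to 649 in lines 1 to 3.

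In flox/flox spheroids 2 of 8 members fell with 4-OHT, where 10% of all genes fell. Alpi was at 319.8, 148, 138, 209.5, 1025 and 952 CPM with DMSO and 70.9, 1.18, 136, 0, 9.81 and 14.1 with 4-OHT, lower in 6 of 6 lines, -3.60 ± 1.19 (edgeR adjusted p 0.0398). Vil1 was at 789.5, 539.8, 628, 646, 959 and 832 CPM with DMSO and 478, 203, 695, 239.6, 335 and 224 with 4-OHT, lower in all lines but line 3, -1.02 ± 0.26 (0.00909). Lct was lower in 6 of 6 lines too, 182, 1.69, 54.1, 4.1, 236 and 14.9 against 6.49, 0, 10.7, 0, 0.157 and 0.367 CPM, but not called at -4.83 ± 2.03 (0.105).

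Each line was its own control here, and with the line as a block 4 members fell, Lct at -5.25 ± 1.07 (edgeR adjusted p 0.0112) and Treh at -4.77 ± 1.43 (0.0431) beside Alpi and Vil1. Mgam was at 0.10 ± 1.31 without the block and -1.99 ± 0.85 with it (0.117), and it was lower in 5 of 6 lines. The Alpi call without the block was lost on leaving out DMSO line 1, 5 or 6 or 4-OHT line 2, 5 or 6 (0.0553 to 0.0813), when only the flox/flox libraries were fitted (0.0772) and without the low-count filter (0.0917). DESeq2 called Lct without the block (adjusted p 0.0313). Treh was called without 4-OHT line 3 (-5.19, edgeR adjusted p 0.0484), the line whose Sis, Mgam, Treh, Anpep and Dpp4 were the highest of the 6. General enterocyte genes summed to 927 to 9672 CPM with DMSO and 57.2 to 3605 with 4-OHT.

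In flox/+ spheroids, where 4-OHT removes 1 copy, 0 of 8 members were called, as were 0 of all 15032 genes, by edgeR and 0 members by DESeq2. Eif4g2 itself was not called by edgeR, at -0.81 ± 0.24 (unadjusted p 0.00294). It was at 702, 745, 800, 1224 and 1165 CPM with DMSO and 351, 471, 536, 679 and 597 with 4-OHT. Since this test did not call the deleted gene, 0 calls cannot show that the members were unchanged. Alpi, Sis, Mgam and Anpep were lower with 4-OHT in 5 of 5 lines. Over all genes 15, and 0 members, had an unadjusted p under 0.05, and the members' estimates ran from -0.85 to -0.16. Flox/flox against flox/+ spheroids gave 0 calls with 4-OHT (10.5% of all genes) and 0 with DMSO (0% of all genes) in edgeR, with 0 members under an unadjusted 0.05 and 0 by DESeq2 in both. The difference of the 4-OHT effects between genotypes was called for 0 members (1.62% of all genes; Vil1 alone under an unadjusted 0.05; 0 by DESeq2), and with the line as a block for 2, Lct -4.35 ± 1.25 and Vil1 -0.98 ± 0.31 (edgeR adjusted p 0.0377 and 0.0461). Vil1 was called between the genotypes with 4-OHT without flox/flox line 3 (-0.76, 0.0389).

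Against second-set organoids with 4-OHT, edgeR called 0 members in flox/+ (47.9% of all genes) and 0 in flox/flox (24.6%). Treh alone had an unadjusted p under 0.05 in each, and DESeq2 called it in flox/+ (-3.36, adjusted p 0.0442). Trehalase was at 0.0605, 0.0488, 0.726, 13.5 and 18.7 CPM in flox/+ spheroids and 98.7, 68.3, 50.3 and 46.8 in flox/+ organoids, without overlap, at -3.34 ± 1.26 (edgeR adjusted p 0.0551) and -3.62 ± 1.35 in flox/flox (0.0768). It was called without flox/+ spheroid line 5 (-4.18, 0.0369) and, in flox/flox, without spheroid line 3 (-5.64, 0.00558). Sis in flox/+ spheroid line 4, 2154 CPM, lay within the 1869 to 3888 CPM of flox/+ organoids.

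**Figure D5:**
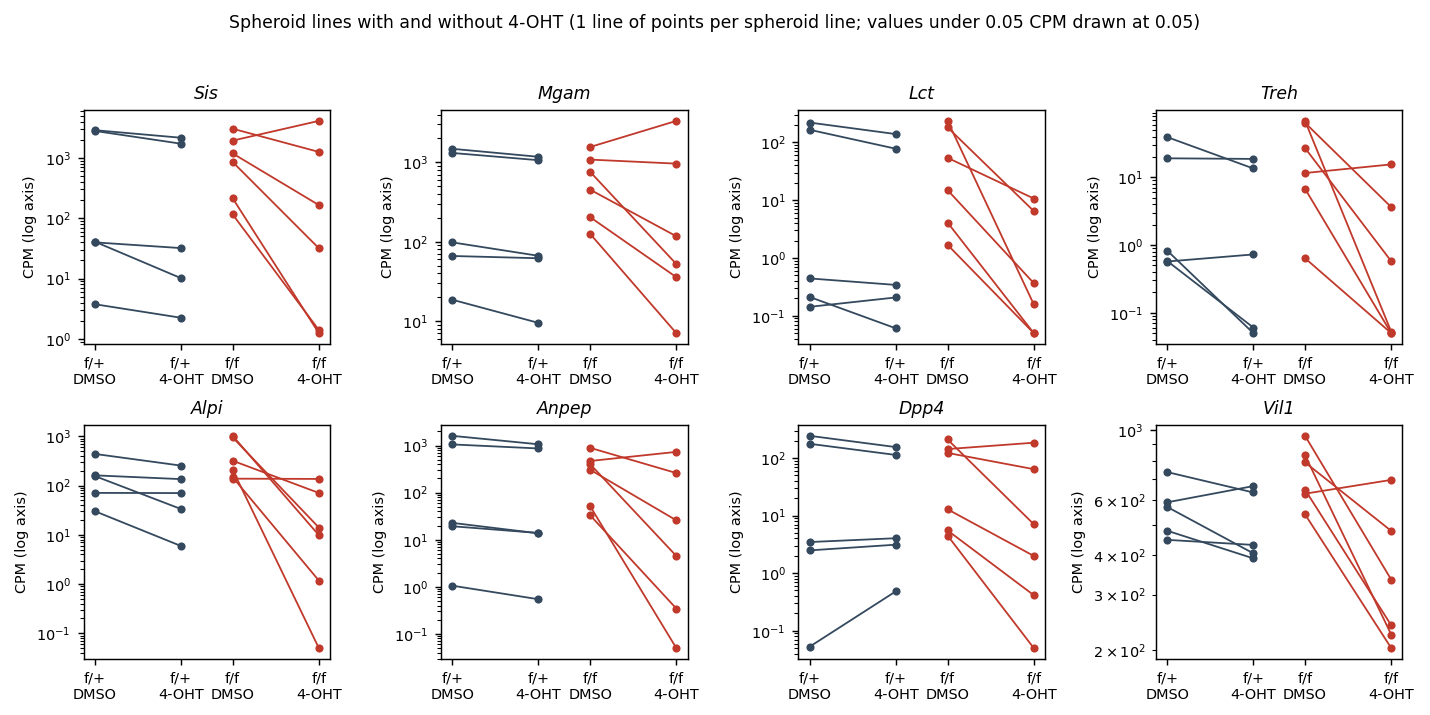
CPM on a log axis for 8 genes in each spheroid line with DMSO and 4-OHT, joined by line, flox/+ in dark blue and flox/flox in red. Sis spans 1.24 to 4096 CPM over the flox/flox lines with 4-OHT, and for Alpi every red line slopes down.

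Other hydrolases of the brush border included genes that rose and genes that fell in villi. Of 15 further hydrolases, 6 of 14 tested fell in Vil1-CreER crypts and 0 rose, where 17.7% of all genes fell, with a median of -1.65 against 0.01 over all genes. Ace and Mme, 2 peptidases, fell the most there (-3.27 and -3.52). In Rosa26-CreER villi 2 of 13 rose and 6 fell (15% of all genes rose and 18.2% fell), and in Vil1-CreER villi 2 of 14 rose and 5 fell (20.9% and 21.6%). The rises were close to the share of all genes with Rosa26 and below it with Vil1. Enpep, glutamyl aminopeptidase, rose in both (1.502 ± 0.226 and 0.66 ± 0.16, edgeR adjusted p 0.000701 and 0.0055), as well as in Rosa26-CreER crypts (1.57) and second-set flox/flox against flox/+ organoids (0.86). Dpep1, a dipeptidase, fell in the first (-3.43 ± 0.28) and second organoids (-3.31 ± 0.14 against flox/+). At 10 µM A-485 11 of 14 fell, where 32.6% of all genes fell (median -3.72 against -0.05), among them Dpep1 at -7.05 and Mep1a, a meprin subunit, at -6.84, while Ace rose (0.80).

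Of 18 genes of microvillus structure, 12 fell in Vil1-CreER crypts, where 17.7% of all genes fell. In the villi 8 fell with each driver (18.2% of all genes with Rosa26 and 21.6% with Vil1). In organoids 11 fell in the first set (17.2%) and 7 in the second against flox/+ (24.3%). In the 4 tissue comparisons of genotype 0 of the 18 rose. Pdzk1, an apical scaffold, fell in both drivers' villi (-1.80 ± 0.35 and -1.65 ± 0.22), and Espn, an actin bundler, in the organoids (-1.82 and -1.10). With A-485 the list moved both ways, with 9 of 18 higher and 5 lower at 5 µM (24.4% and 25.1% of all genes) and 4 higher and 8 lower at 10 µM (29.4% and 32.6%). The 5 lower at 5 µM were close to that share, and the 4 higher at 10 µM were no more than it. Ezr, ezrin, rose at every dose (0.75, 1.29 and 1.36) and Espn (-5.47) and Myo1a (-4.48) fell at 10 µM.

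Among 10 general enterocyte genes, Slc2a5 and Slc2a2, fructose and glucose transporters, fell in Rosa26-CreER villi (-1.80 and -1.25) and Vil1-CreER villi (-1.30 and -1.16), and the sodium-glucose transporter Slc5a1 rose in the first (1.07 ± 0.16, edgeR adjusted p 0.000687). None of the 10 was called in Rosa26-CreER crypts. At 10 µM A-485 9 of 10 fell (32.6% of all genes), Apoa4 by the most (-7.96 ± 0.70). Of 13 transcription factors known to act on enterocyte genes, 3 fell and 1 rose in Rosa26-CreER crypts, where 11.6% of all genes fell and 8.63% rose, so that the 1 rise was at the share of all genes. In Rosa26-CreER villi 4 rose (15% of all genes) and in Vil1-CreER crypts 5 fell (17.7%). In the villi Klf4 rose with Rosa26 (0.91), and with Vil1 Hnf4g and Cdx2 fell (-0.65 and -0.47). At 10 µM A-485 9 of 13 fell (32.6% of all genes), Cdx1 (-4.49) and Hnf4g (-3.24) by the most. Of the 6 villus tip genes Egfr, the EGF receptor, rose in the villi of both drivers (1.18 ± 0.28 and 1.34 ± 0.31), in the first organoids (0.65) and at each A-485 dose (up to 1.86), and fell in Vil1-CreER crypts (-0.36).

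The patterns of the 9 genes over the 21 groups were compared with those of 11404 other genes by Pearson's r of group means of log2(CPM + 1). The means were centred within each count table. Crypts and villi of a driver were thus centred together, as were second-set organoids and spheroids, and the gaps between them remain in r. The groups share libraries and normalization, so r is a description. Treh was most like Ggt1 (r = 0.992) and the transporter Slc2a2 (0.987), Vil1 like Smpd2 (0.991) and Plin3 (0.985), and Dpp4 like Slc41a2 (0.987) and Dpyd (0.954). Sis was most like Ppp1r14d (0.985) and Cyp4f14 (0.983), Lct like Slc5a11 (0.984) and Dpep1 (0.977), and Alpi like Fmo5 (0.979). Anpep was nearest to Abcg5 (0.976) and Apoa1 (0.974) and Mgam to Enpep (0.969) and Cyp4f14 (0.957). Tmprss15 had the loosest neighbours, Lpar3 (0.945) and H2-Ab1 (0.926). Among the members themselves r was highest for Lct with Treh (0.956) and lowest for Mgam with Tmprss15 (0.393).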

How the data were processed

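RNA-seq counts per gene of 92 libraries in 4 tables were used as the authors deposited them. Per the labels' protocols the libraries were poly(A)-selected and directional. HISAT2 2.0.5 and the build GRCm38 are named per the submitters' processing notes, and the counting tool, its strand setting and the annotation release are not given in the sources used here. Each comparison was fitted over all genes of the relevant groups with edgeR 4.0.16 (filterByExpr, TMM, robust quasi-likelihood F test, Benjamini-Hochberg) in R 4.3.3, called at an adjusted p under 0.05. The SE is the log2 fold change over the root of F, and CPM per kb divides by the deposited gene length. The fit was tested on simulated data for Rosa26-CreER crypts and for 10 µM A-485. Alternatives were DESeq2 1.42.0, other scalings, no filter, blocks and leaving out each library. For the Rosa26-CreER tissue a Ddx3y term and a term for the series of animal numbers were also fitted. The closest libraries of a group differed by a chi-square of 6.77 per degree of freedom over 164 pairs, so none were merged. The named genes are the 9 members in each comparison, Eif4g2, of each other list the 2 largest called rises and falls whose mean log2 CPM was no lower than 3, of which some are printed, and the 2 genes most like each member, apart from items that are not reported here. The members and the lists were chosen with earlier results of these data known. Same animals (villi and crypts) and same lines (first organoids, A-485, spheroid treatments) give the blocks, from the animal and line names in the labels and column names. Same-line deviations correlated at 0.406 to 0.893 in spheroids and 0.0794 to 0.425 with A-485.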

Additional observations from a re-analysis of the deposited data

Results flagged for a closer look

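A highest or lowest library stood far from the rest of its group in 15 of 162 groups of values tested with Dixon's ratio at its 95% limit. Chance flags about 1 in 20 where values are normal and groups independent. Neither holds for CPM of genes measured in the same libraries, so the 15 cannot be set against that rate. Where all other libraries are at 0, as for Tmprss15 in spheroids with 4-OHT, the ratio is 1 whatever the value. Of these, 5 fell on flox/flox spheroid line 3 with 4-OHT. It was the highest of 6 for Sis (4096 CPM, others 1.24 to 1254), Mgam (3328, others 7.05 to 963), Treh (15.5, others up to 3.63), Anpep (733, others up to 260.4) and Dpp4 (184, others up to 64). Rosa26-CreER homozygous crypt replicate 1 was the highest of 4 for Sis (968 CPM, others 352 to 376) and Vil1 (1007, others 366 to 397).

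Tmprss15 stood out in single libraries at low counts, with 1.55 CPM in Vil1-CreER heterozygous crypt replicate 3 and 1.65 in flox/flox spheroid line 5 with DMSO. With 4-OHT 1 library was above 0 among the flox/flox spheroids (0.105, that same line) and 1 among the flox/+ spheroids (0.193, a different line). Lct was lowest in DMSO line 1 of the A-485 series (26.1 CPM, others 75.2 to 80.7) and highest in CreER-only organoid 3 (106, others 51.8 to 60.5). Alpi was highest in Vil1-CreER homozygous villus replicate 5 (2000.0 CPM, others 912 to 1196), and Anpep lowest in heterozygous villus replicate 2 of that driver (6734, others 9972 to 10625).

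The genotype effect differed between villi and crypts with the Vil1 driver by the edgeR interaction test for Alpi 2.00 ± 0.47 (adjusted p 0.011), Sis 2.06 ± 0.45 (adjusted p 0.00796), Anpep 2.15 ± 0.49 (adjusted p 0.00942), Dpp4 1.08 ± 0.30 (adjusted p 0.0239) and Mgam 0.79 ± 0.25 (adjusted p 0.0382), given as the log2 effect in villi minus that in crypts.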

How the results depend on the processing

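Members called over all libraries kept their direction under each alternative and each left-out library: of the called values, 1055 kept their call without a library and 90 lost it, 529 kept it under another setting and 30 lost it, and 0 changed sign. Leaving out 1 library at a time gave these ranges of members called, with the count over all libraries in parentheses: 1 to 2 in Rosa26-CreER crypts (2), 2 to 7 in Vil1-CreER crypts (7), 3 to 7 in the Vil1-CreER interaction (5), 2 to 5 in 3 µM A-485 (5), 0 to 1 in 5 against 3 µM (0) and 1 to 3 in flox/flox spheroids (2). It further gave 0 to 1 in spheroid genotypes with 4-OHT (0), 0 to 1 in flox/+ spheroids against organoids (0) and 0 to 1 in flox/flox spheroids against organoids (0). Leaving out 1 library at a time gave these ranges of genes called, with the count over all libraries in parentheses: 1937 to 4732 in Rosa26-CreER crypts (3198), 3223 to 5978 in Vil1-CreER crypts (4960), 1079 to 3068 in the Rosa26 interaction (1904), 1456 to 3425 in the Vil1-CreER interaction (2766), 1 to 32 in flox/+ against CreER-only organoids (16) and 131 to 362 in the spheroid interaction (243). It further gave 2016 to 4967 in flox/flox spheroids against organoids (3396). Some uncalled log2 fold changes changed sign on leaving out a library, and the cause was not tested. Alpi ranged from -0.54 to 0.54 in Rosa26-CreER crypts and -0.31 to 0.55 in second organoids against flox/+. Sis ranged from -0.0295 to 0.65 in Rosa26-CreER crypts, -0.12 to 0.22 in Vil1-CreER villi, -0.11 to 0.27 in second organoids against flox/+, -0.22 to 0.0426 in second organoids against CreER-only and -2.08 to 0.10 in flox/flox spheroids. Anpep ranged from -0.10 to 0.94 in Rosa26-CreER crypts and -0.19 to 0.0252 in Vil1-CreER villi. Dpp4 ranged from -0.13 to 0.0921 in Rosa26-CreER villi. Tmprss15 ranged from -2.41 to 0.53 in the Vil1-CreER interaction. Vil1 ranged from -0.072 to 0.14 in 10 µM A-485. Mgam ranged from -1.58 to 0.51 in flox/flox spheroids. With the Ddx3y term the calls came to 2967 genes in Rosa26-CreER villi (from 4504), and the sign turned for Lct 0.20 in Rosa26-CreER crypts, Treh 0.18 in Rosa26-CreER crypts, Dpp4 0.53 in Rosa26-CreER crypts and Vil1 0.70 in Rosa26-CreER crypts. With library totals without TMM the calls came to 1 member in flox/+ spheroids against organoids (from 0), and the sign turned for Dpp4 0.032 in Rosa26-CreER villi and Anpep 0.11 in Vil1-CreER villi. With no filter beyond 1 read the calls came to 3 members in Vil1-CreER crypts (from 7), 1221 genes in the Rosa26 interaction (from 1904), 2 members in 3 µM A-485 (from 5), 60 genes in flox/+ against CreER-only organoids (from 16), 1 member in flox/flox spheroids (from 2) and 123 genes in the spheroid interaction (from 243). With the replicate number as a block the calls came to 4 members in Vil1-CreER crypts (from 7), 30 genes in flox/+ against CreER-only organoids (from 16) and 141 genes in spheroid genotypes with 4-OHT (from 1577), and the sign turned for Sis -0.21 in Vil1-CreER villi. With DESeq2 the calls came to 2891 genes in the Rosa26 interaction (from 1904), 145 genes in flox/+ against CreER-only organoids (from 16), 2 genes in spheroid genotypes with DMSO (from 0), 572 genes in the spheroid interaction (from 243) and 1 member in flox/+ spheroids against organoids (from 0), and the sign turned for Tmprss15 -0.33 in the Vil1-CreER interaction. With the animal or line as a replicate block the calls came to 777 genes in the Rosa26 interaction (from 1904), 3 members in the Vil1-CreER interaction (from 5), 3 members in 5 against 3 µM (from 0), 3941 genes in 10 against 5 µM (from 2592), 4 members in flox/flox spheroids (from 2), 4649 genes in flox/flox spheroids (from 2864), 1 gene in flox/+ spheroids (from 0), 2 members in the spheroid interaction (from 0) and 2758 genes in the spheroid interaction (from 243), and the sign turned for Tmprss15 -1.19 in the Vil1-CreER interaction and Mgam -1.99 in flox/flox spheroids. With the A-485 libraries in the fit the calls came to 3079 genes in first organoids (from 5422). With DESeq2 size factors the sign turned for Vil1 -0.000409 in 10 µM A-485. With only the compared libraries in the fit the calls came to 2229 genes in 5 against 3 µM (from 3358), 1 member in flox/flox spheroids (from 2) and 880 genes in spheroid genotypes with 4-OHT (from 1577). Further uncalled values turned sign, with library totals without TMM Sis 0.12 in the Rosa26 interaction and Alpi -0.0217 in 5 against 3 µM, with no filter beyond 1 read Sis 0.0171 in the Rosa26 interaction, with DESeq2 size factors Dpp4 -0.000568 in flox/+ against CreER-only organoids, with DESeq2 Dpp4 -0.00115 in flox/+ against CreER-only organoids, with the replicate number as a block Sis -2.41 in spheroid genotypes with 4-OHT, Mgam -1.79 in spheroid genotypes with 4-OHT, Anpep 0.93 in spheroid genotypes with DMSO, Dpp4 1.84 in spheroid genotypes with DMSO and Anpep -4.45 in flox/+ spheroids against organoids, with the animal or line as a replicate block Sis -2.70 in the spheroid interaction and Mgam -1.53 in the spheroid interaction. The cause of these changes was not tested. Crypts and villi share animals, and first organoids, A-485 doses and spheroid treatments share lines, and the block values beside the results are those that change a call. Same-numbered samples of the other comparisons carry no shared animal or line name. In the Rosa26 tissue, samples of the 2 genotypes with the same number also come from the same series of animal numbers. The deviations of same-numbered samples from the group means correlated from -0.493 to 0.628. In none of these comparisons did every sample correlate best with its own number. A scaling by library totals moved the median of all genes by up to -1.06 on the log2 scale in villi against crypts, and turned the sign of the Dpp4 and Anpep values given above. Counts near 0, as of Tmprss15 in cultures and of Lct and Treh at 10 µM A-485, limit the precision of those values.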
